A study of Mus musculus with 22 samples.

Results

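The clustered protocadherin genes are 57 protein-coding genes on mouse chromosome 18, among 47729 genes counted in each library. They were chosen by symbol, as the protein-coding genes named Pcdha, Pcdhb and Pcdhg with a member letter or number, and comprise 14 alpha, 22 beta and 21 gamma genes. The symbol rule used no expression value, although earlier results of these data were known when it was set. A further gene with a matching symbol, Pcdhgb8, is annotated as a polymorphic pseudogene, had at most 5 counts in any library and was left out. The symbol Pcdha11 belongs to 2 identifiers, ENSMUSG00000007440 and ENSMUSG00000102206, which were kept apart.

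Clustered protocadherins are cadherin-like adhesion proteins of the cell surface, best known from neurons, where each cell makes its own small set of them and uses that set to tell its own branches from those of other cells. Each alpha and gamma gene has its own promoter and a large variable first exon, which codes for the outside of the protein and is spliced to constant exons shared by the whole cluster, whereas a beta gene consists of a single coding exon of its own. In mouse neurons the promoters are chosen largely at random with the help of CTCF and cohesin. DNA methylation of the promoters, laid down in the early mouse embryo by Dnmt3b, is known to bear on that choice. The C-type genes Pcdhac1, Pcdhac2, Pcdhgc3, Pcdhgc4 and Pcdhgc5 are less similar in sequence to their neighbours and are used more evenly across neurons.

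RNA sequencing covered 22 libraries of mouse embryonic stem (ES) cells grown in serum and LIF. In the treated set, 12 libraries hold 2 libraries each of KO22 with GSK-3484862, KO22 with DMSO, N22 with GSK-3484862, N22 with DMSO, WT with GSK-3484862 and WT with DMSO. GSK-3484862 leads to loss of the maintenance DNA methyltransferase DNMT1 and was given for 3 days, at 1 uM by the treatment protocol and 2 uM by the design text. DMSO is the solvent control. In the untreated set, 10 libraries hold 3 Dux-KO clones (15, 22 and 52), 4 clones titled Duxnto1 (17, 22, 31 and 40, called Dux n=1 here) and 3 libraries of E14, a mouse ES cell line. Dux encodes a transcription factor of the 2-cell embryo. Dux-KO cells were made with CRISPR-Cas9 to remove it and Dux n=1 cells to leave 1 copy, as their names are read here. The treated KO22 and N22 cells, Dux-KO22 and Dux-N22 in the titles, were taken to be 1 clone of each kind, so a difference between them or from WT cannot be told apart from a difference between clones. Cultures, days and batches are not named in the titles, and the p-values thus weigh differences against a spread of libraries that may be technical.

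Total counts were 15803194 to 19427794 per library. The annotated Dux gene, Duxf3, had 0 counts in all 4 KO22 libraries, 13 and 11 in N22 with GSK-3484862, 3 and 0 in N22 with DMSO, 19 and 18 in WT with GSK-3484862 and 1 and 1 in WT with DMSO. Among the untreated libraries it had 0, 5 and 1 counts in Dux-KO 15, 22 and 52, then 1, 3, 0 and 1 in Dux n=1 17, 22, 31 and 40 and 1, 0 and 0 in E14, so the library labelled Dux-KO 22 had the highest untreated count of the gene its label says is removed. Counts of 0 to 5 are too few to rank the libraries, and multi-mapping reads were left out. All 8 ES cell markers were counted in every group, and their sum was 3898 to 5483 CPM (counts scaled by the library total).

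The genes lie between positions 36930184 and 37841873 of chromosome 18 (GRCm38), all on the plus strand, in the order alpha, beta, gamma. Reads in the constant exons fall in many alpha or gamma genes at once and were not counted, so the value of an alpha or gamma gene rests almost wholly on its own first exon. Parts of the first exons overlap other annotated transcripts and were likewise lost, in 5 alpha, 3 beta and 10 gamma genes. Pcdhga10 had no exon base of its own, because the transcript Gm26672 covers it, and had 6 counts in all 22 libraries together. Pcdha4 kept 13.9% of its first exon. Pcdhgc3 kept 53.9% (it overlaps BC037039) and Pcdhga11 47.6%. Counting ignored strand, so reads of a gene and of an antisense partner cannot be told apart, and multi-mapping reads were left out, so values of near-identical family members are uncertain. In bulk RNA, fewer cells with a transcript and less of it per cell cannot be told apart.

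Nearly all reads came from the gamma cluster. Over the 22 libraries the gamma genes had 15206 counts, the beta genes 840 and the alpha genes 133. Of the gamma genes, 19 of 21 reached 10 counts in some library, against 3 of 22 beta and 1 of 14 alpha genes. Pcdhb9 and Pcdha11 (ENSMUSG00000102206) had none in any library. Levels per kilobase of exon counted for that gene alone ranged widely within the gamma cluster. In WT with DMSO, Pcdhgc3 was first at 2.61 ± 0.712 CPM per kilobase (SD, n = 2), followed by Pcdhga11 at 1.80 ± 0.415 and Pcdhga12 at 1.24 ± 0.0992, and Pcdhga6 was last at 0.0199 ± 2.67e-04. Neighbours in this order of 20 genes overlapped within 1 SD, except between Pcdhga11 and Pcdhga12, between Pcdhga12 and Pcdhga4, between Pcdhga4 and Pcdhga1 and between Pcdhgc4 and Pcdhga6. In untreated E14 the order began with Pcdhga11 (1.93 ± 0.262 CPM per kilobase, SD, n = 3), Pcdhgc3 (1.61 ± 0.216) and Pcdhga8 (1.28 ± 0.119), the last of which was 12th in WT with DMSO at 0.275 ± 0.109. The 2 sets were not fitted together.

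**Figure D1:**
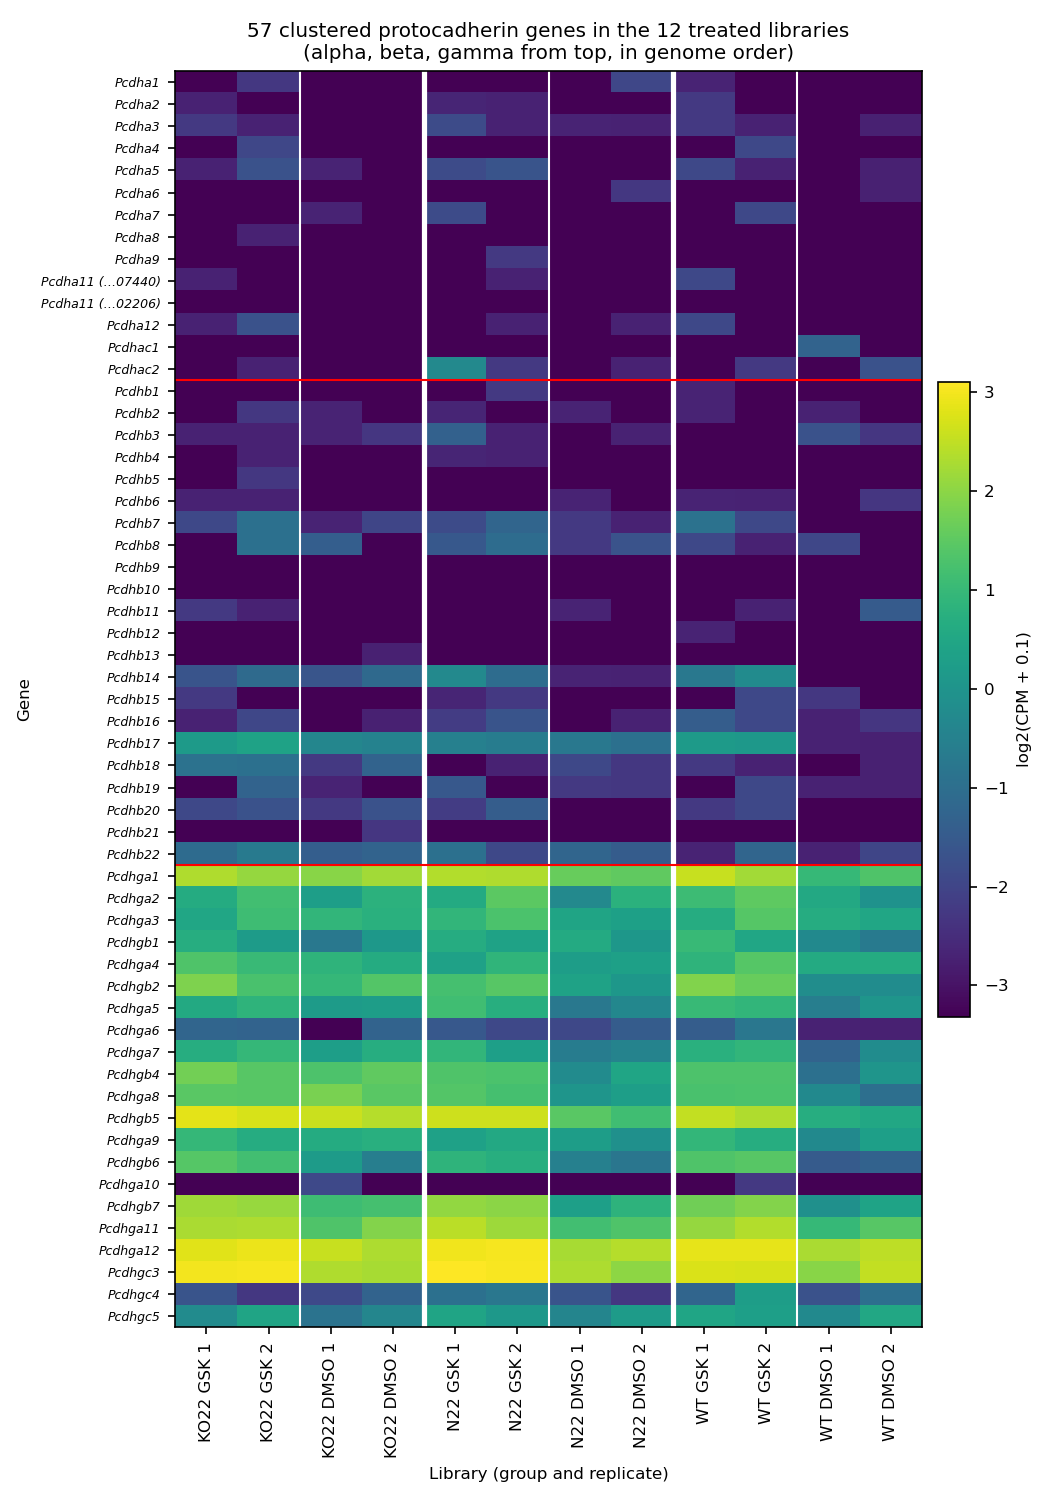
Expression of the 57 genes (rows, in genome order, alpha above beta above gamma, separated by red lines) in the 12 treated libraries (columns), as log2(CPM + 0.1). The gamma rows hold most of the signal, and within them the columns with GSK-3484862 are brighter than those with DMSO.

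The response to GSK-3484862 was read within each genotype. Summed over the 21 gamma genes, KO22 had 60.9 and 59.0 CPM with GSK-3484862 and 43.3 and 44.9 with DMSO. N22 had 58.6 and 57.8 CPM with GSK-3484862 and 29.7 and 30.4 with DMSO. WT had 57.8 and 59.5 CPM with GSK-3484862 and 24.6 and 29.9 with DMSO. Every library given GSK-3484862 was thus above every DMSO library, the 6 treated libraries lay within 57.8 to 60.9 CPM, and the DMSO libraries spread from 24.6 to 44.9 CPM with KO22 on top. The ratio of the GSK-3484862 mean to the DMSO mean was 1.36 in KO22, 1.94 in N22 and 2.15 in WT. The summed 6 gamma B genes had ratios of 1.47 in KO22 (20.7 against 14.04 CPM), 2.33 in N22 (17.8 against 7.62) and 3.84 in WT (18.6 against 4.83). The 3 gamma C genes had ratios of 1.62 in KO22 (9.13 against 5.63 CPM), 1.82 in N22 (9.90 against 5.45) and 1.39 in WT (8.49 against 6.09). The 12 gamma A genes gave 1.23 in KO22, 1.80 in N22 and 1.94 in WT. Of these types, gamma B had the highest ratio in N22 and WT and gamma C in KO22, and WT had the lowest gamma C ratio of the genotypes. These sums were not tested.

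**Figure D2:**
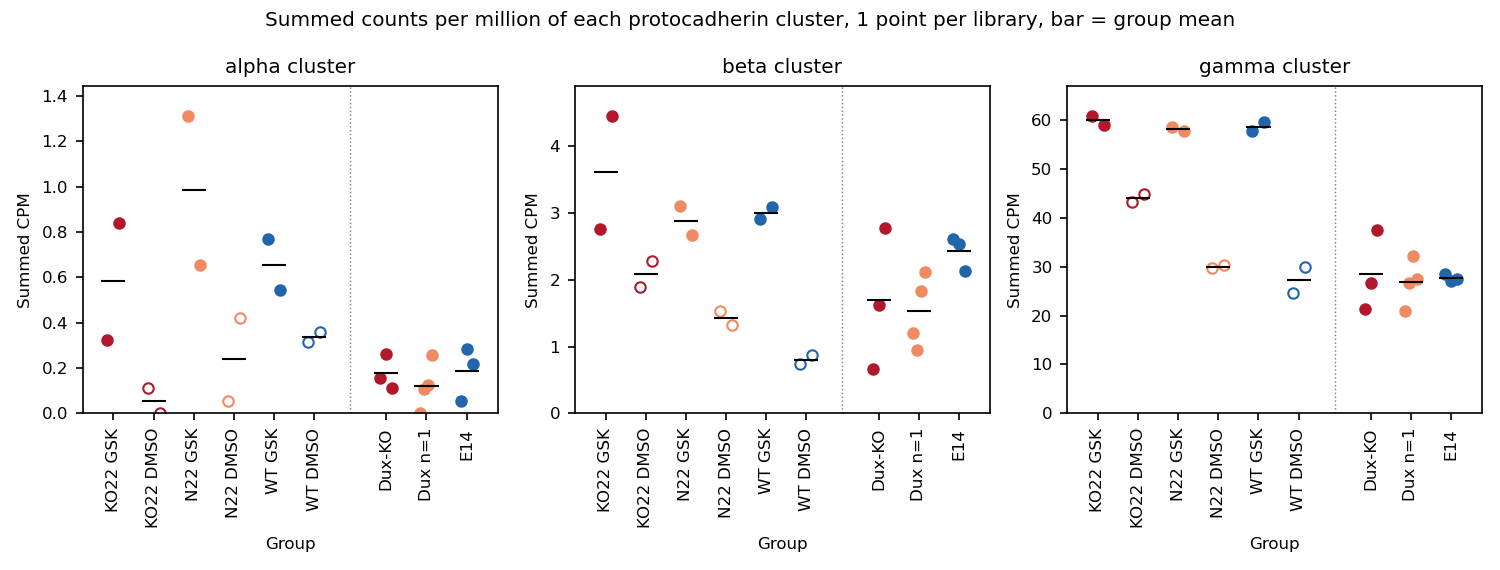
Summed CPM of the alpha, beta and gamma genes, 1 point per library with a bar at the group mean, for the treated groups (left of the dotted line, DMSO as open points) and the untreated groups (right). Gamma sums are close together in the 6 libraries given GSK-3484862 (57.8 to 60.9 CPM) and apart in DMSO, where KO22 is highest. The vertical axes differ between clusters.

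In tests across all genes, 20 of the 57 genes passed the filter on low counts in the treated set: 18 gamma genes, Pcdhb14 and Pcdhb17. None of the 14 alpha genes passed, nor did Pcdhga6, Pcdhga10, Pcdhgc4 and the other 20 beta genes. In WT, 15 of the 20 rose with GSK-3484862 at an edgeR adjusted p below 0.05 and none fell, beside 28.7% of 16641 genes tested that rose. Of the 17 that had a mean of at least 10 counts in WT with DMSO, 12 rose. Pcdhb14, Pcdhb17 and Pcdhgb6 were below that mean there and entered through the groups where they are high. In N22, 13 of the 20 rose and none fell (26.9% of all genes rose), and of the 18 with a mean of at least 10 counts in N22 with DMSO 12 rose. In KO22, 5 of the 20 rose and none fell (24.8% of all genes rose), a share close to that of all genes. The median log2 change of the 18 gamma genes was 0.41 in KO22, 0.95 in N22 and 1.22 in WT, beside 0.00395, 0.00168 and 0.00349 over all genes tested.

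All 6 gamma B genes rose in WT, 5 of 6 in N22 and 2 of 6 in KO22. Pcdhgb5, with its first exon at 37731009 to 37735622, had 7.09 and 6.50 CPM in KO22 with GSK-3484862 and 5.95 and 5.17 with DMSO. It had 6.03 and 6.0 CPM in N22 with GSK-3484862 and 2.68 and 2.11 with DMSO, and 5.61 and 4.99 in WT with GSK-3484862 and 1.52 and 1.34 with DMSO. The libraries given GSK-3484862 lay between 4.99 and 7.09 CPM in all genotypes, and with DMSO those of KO22 were high, those of N22 lower and those of WT lowest, without overlap. Its rise was 1.82 ± 0.24 (log2, SE, edgeR adjusted p = 7.23e-10) in WT and 1.28 ± 0.21 (log2, SE, edgeR adjusted p = 5.79e-07) in N22. In KO22 the difference was 0.28 ± 0.18 (log2, SE, edgeR adjusted p = 0.214), not called.

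Pcdhgb6 (first exon 37742094 to 37744658) had 2.54 and 2.15 CPM in KO22 with GSK-3484862 and 1.06 and 0.569 with DMSO. It had 1.73 and 1.53 CPM in N22 with GSK-3484862 and 0.601 and 0.475 with DMSO, and 2.42 and 2.61 in WT with GSK-3484862 and 0.262 and 0.309 with DMSO. All 6 libraries given GSK-3484862 lay above all 6 DMSO libraries. It rose in each genotype, by 1.52 ± 0.37 (log2, SE, edgeR adjusted p = 5.51e-04) in KO22, 1.54 ± 0.43 (log2, SE, edgeR adjusted p = 0.00175) in N22 and 3.04 ± 0.45 (log2, SE, edgeR adjusted p = 2.53e-08) in WT. Pcdhgb7 (37751600 to 37754193, 70.3% of its first exon counted) had 4.49 and 4.25 CPM in KO22 with GSK-3484862 and 2.06 and 2.22 with DMSO. It had 4.12 and 3.87 CPM in N22 with GSK-3484862 and 1.15 and 1.69 with DMSO, and 3.19 and 3.69 in WT with GSK-3484862 and 0.839 and 1.24 with DMSO. It too was higher in every library given GSK-3484862 than in any with DMSO, and it rose by 1.01 ± 0.25 (log2, SE, edgeR adjusted p = 6.18e-04) in KO22, 1.44 ± 0.28 (log2, SE, edgeR adjusted p = 9.47e-06) in N22 and 1.66 ± 0.29 (log2, SE, edgeR adjusted p = 1.82e-06) in WT.

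Pcdhgb2 (37689828 to 37692590) had 3.52 and 2.31 CPM in KO22 with GSK-3484862 and 1.84 and 2.54 with DMSO, so that these 4 libraries overlapped. It had 2.21 and 2.62 CPM in N22 with GSK-3484862 and 1.20 and 0.950 with DMSO, and 3.63 and 2.99 in WT with GSK-3484862 and 0.787 and 0.772 with DMSO. It rose by 1.12 ± 0.33 (log2, SE, edgeR adjusted p = 0.00323) in N22 and 2.01 ± 0.33 (log2, SE, edgeR adjusted p = 3.80e-07) in WT, against 0.40 ± 0.28 (log2, SE, edgeR adjusted p = 0.262) in KO22. The other gamma B genes, Pcdhgb1 and Pcdhgb4, rose by 1.30 ± 0.44 and 1.74 ± 0.36 in WT (edgeR adjusted p = 0.00879 and 3.43e-05).

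Of the gamma A genes, 7 of 10 tested rose in WT, 6 in N22 and 2 in KO22. Pcdhga1, the first gene of the gamma cluster (first exon 37661793 to 37665039), had 4.98 and 4.20 CPM in KO22 with GSK-3484862 and 3.84 and 4.55 with DMSO. It had 5.07 and 4.96 CPM in N22 with GSK-3484862 and 2.95 and 2.80 with DMSO, and 5.83 and 4.56 in WT with GSK-3484862 and 1.89 and 2.42 with DMSO. The KO22 groups overlapped and the other pairs did not. It rose by 0.76 ± 0.22 (log2, SE, edgeR adjusted p = 0.00296) in N22 and 1.20 ± 0.23 (log2, SE, edgeR adjusted p = 6.84e-06) in WT, against 0.11 ± 0.21 (log2, SE, edgeR adjusted p = 0.690) in KO22. Pcdhga8 (37725706 to 37728316, 79.9% counted) had 2.65 and 2.62 CPM in KO22 with GSK-3484862 and 3.45 and 2.64 with DMSO. It had 2.51 and 2.24 CPM in N22 with GSK-3484862 and 0.928 and 1.11 with DMSO, and 2.31 and 2.33 in WT with GSK-3484862 and 0.734 and 0.412 with DMSO. In KO22 the DMSO libraries already stood at the level of all libraries given GSK-3484862, or above it. Its rise was 1.16 ± 0.33 (log2, SE, edgeR adjusted p = 0.00238) in N22 and 1.95 ± 0.37 (log2, SE, edgeR adjusted p = 6.21e-06) in WT, against -0.21 ± 0.27 (log2, SE, edgeR adjusted p = 0.558) in KO22.

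Pcdhga12, the most counted gene of the family in the treated set (37765580 to 37770124, 90.7% counted), had 6.93 and 7.50 CPM in KO22 with GSK-3484862 and 5.79 and 4.91 with DMSO. It had 7.76 and 8.07 CPM in N22 with GSK-3484862 and 4.70 and 5.12 with DMSO, and 7.26 and 7.27 in WT with GSK-3484862 and 4.83 and 5.41 with DMSO. The genotypes lay close together with either treatment, and every library given GSK-3484862 exceeded every DMSO library. It rose by a small amount in all 3, 0.42 ± 0.17 (log2, SE, edgeR adjusted p = 0.0364) in KO22, 0.64 ± 0.17 (log2, SE, edgeR adjusted p = 0.00125) in N22 and 0.44 ± 0.17 (log2, SE, edgeR adjusted p = 0.0232) in WT. Pcdhga11 rose in all 3 as well, by 0.64, 1.04 and 0.97 in KO22, N22 and WT (edgeR adjusted p = 0.0172, 1.90e-04 and 4.32e-04). Pcdhga3, Pcdhga4 and Pcdhga9 were not called in any genotype, with log2 differences of -0.023 to 0.77.

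Of the gamma C genes, Pcdhgc3 (37806364 to 37809743) had 7.85 and 8.08 CPM in KO22 with GSK-3484862 and 4.95 and 4.71 with DMSO. It had 8.53 and 8.12 CPM in N22 with GSK-3484862 and 4.91 and 3.96 with DMSO, and 6.65 and 6.51 in WT with GSK-3484862 and 3.83 and 5.66 with DMSO. Again all 6 libraries given GSK-3484862 were above all 6 with DMSO, and WT with DMSO had the widest pair. It rose by 0.71 ± 0.18 (log2, SE, edgeR adjusted p = 6.68e-04) in KO22 and 0.86 ± 0.18 (log2, SE, edgeR adjusted p = 4.53e-05) in N22, and missed the threshold in WT at 0.41 ± 0.18 (log2, SE, edgeR adjusted p = 0.0507).

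Pcdhgc5 (37819513 to 37825079) had 0.758 and 1.26 CPM in KO22 with GSK-3484862 and 0.445 and 0.673 with DMSO. It had 1.25 and 0.981 CPM in N22 with GSK-3484862 and 0.655 and 1.06 with DMSO, and 1.27 and 1.14 in WT with GSK-3484862 and 0.734 and 1.34 with DMSO. The N22 and WT pairs overlapped, and no change was called, with log2 differences of 0.83 (95% interval -0.13 to 1.79) in KO22, 0.33 (95% interval -0.57 to 1.22) in N22 and 0.15 (95% interval -0.70 to 1.00) in WT. Pcdhgc4 did not pass the filter and had 4 and 2 counts in KO22 with GSK-3484862 and 3 and 6 with DMSO, 7 and 9 in N22 with GSK-3484862 and 4 and 2 with DMSO, and 6 and 20 in WT with GSK-3484862 and 4 and 8 with DMSO, its highest count being in WT GSK 2.

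**Figure D3:**
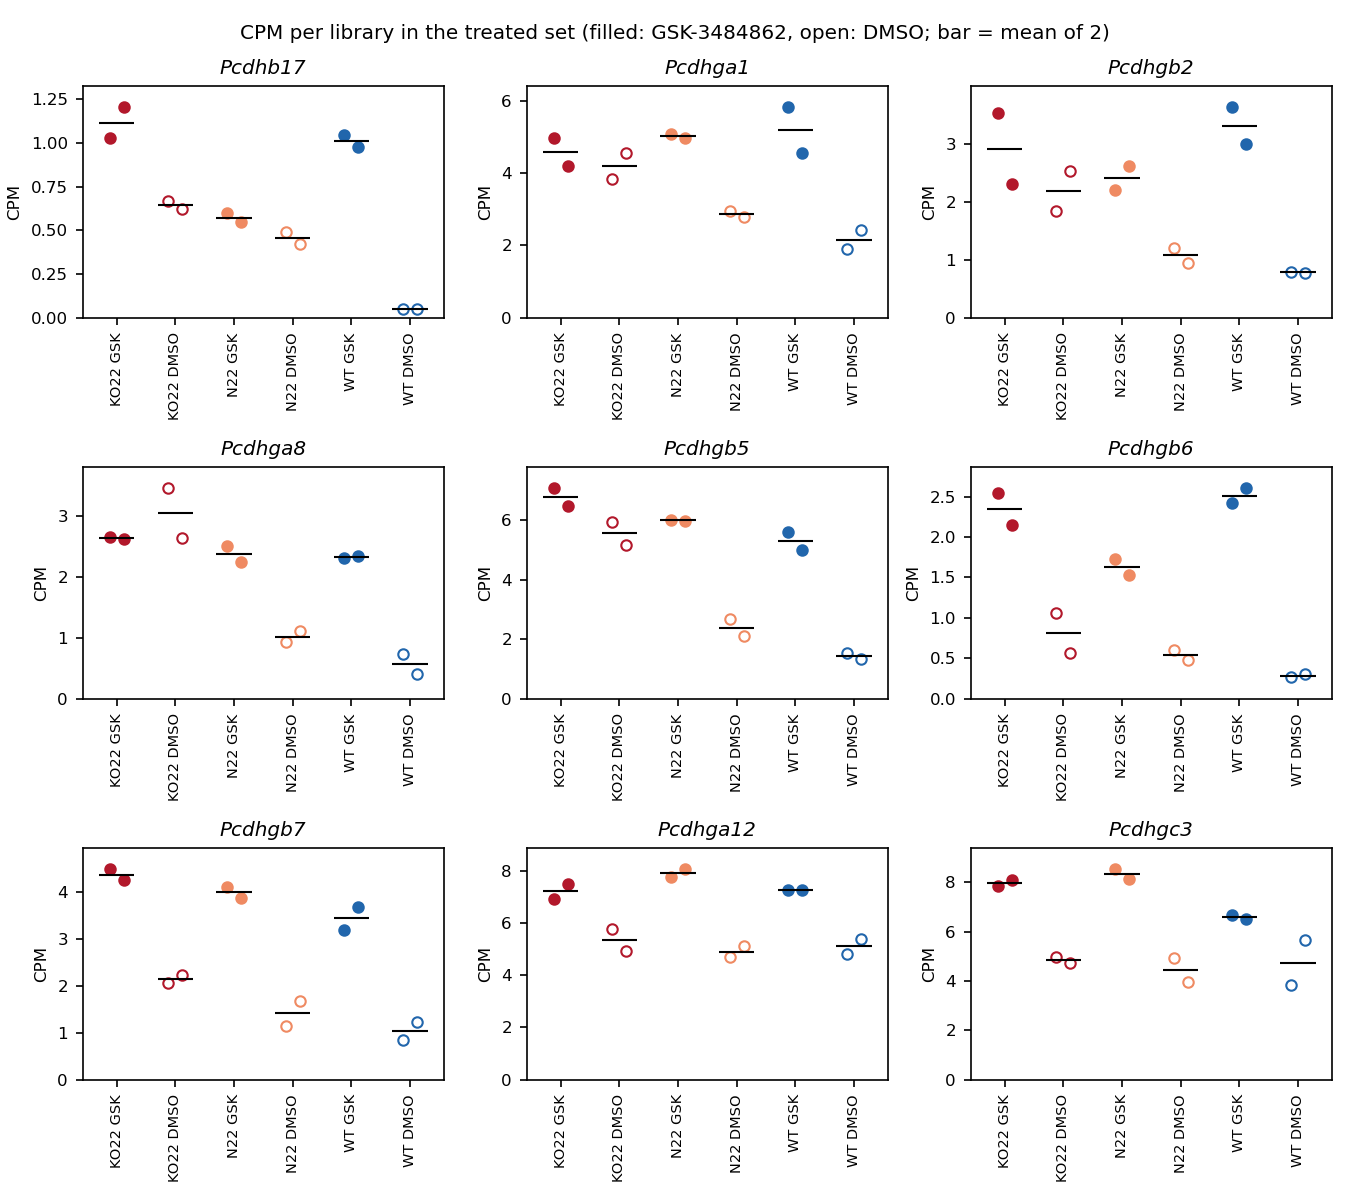
CPM of Pcdhb17 and 8 gamma genes in the 12 treated libraries, by genotype and treatment, with a bar at the mean of 2 libraries. Pcdhga8, Pcdhgb5 and Pcdhb17 differ between genotypes with DMSO (open points), whereas Pcdhga12 and Pcdhgc3 lie close together with DMSO and are higher with GSK-3484862 (filled points).

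Leaving out 1 library ended some of these calls, in most cases with a log2 difference within 1.5 times of that of all libraries. Over the omissions 9 calls were lost in WT, at 0.682 to 1.01 times the log2 difference of all libraries, 6 in KO22, at 0.591 to 1.13 times, and 4 in N22, at 0.725 to 0.921 times. In WT these were Pcdhga12 without WT DMSO 1, WT GSK 1 or WT GSK 2 (log2 differences of 0.36, 0.45 and 0.45, edgeR adjusted p = 0.151, 0.0700 and 0.0711), Pcdhga5 and Pcdhga7 without WT DMSO 1 (0.94 and 1.06, edgeR adjusted p = 0.0961 and 0.0724), Pcdhga2 without WT DMSO 2 or WT GSK 2 (0.76 and 0.80, edgeR adjusted p = 0.149 and 0.137) and Pcdhgb1 without WT DMSO 2 or WT GSK 1 (1.07 and 1.0, edgeR adjusted p = 0.0876 and 0.124). Pcdhga7 was 2.35 without WT DMSO 2, against 1.56 with all libraries. In KO22 they were Pcdhga11 without KO22 DMSO 1, KO22 GSK 1 or KO22 GSK 2 (0.38, 0.65 and 0.62, edgeR adjusted p = 0.272, 0.0539 and 0.0731) and Pcdhga12 without KO22 DMSO 2, KO22 GSK 1 or KO22 GSK 2 (0.31, 0.48 and 0.36, edgeR adjusted p = 0.259, 0.0626 and 0.181), and Pcdhga11 was 0.97 without KO22 DMSO 2. In N22 they were Pcdhb14 without N22 GSK 1 (2.64, edgeR adjusted p = 0.0829), Pcdhga7 without N22 DMSO 1 or N22 GSK 1 (1.15 and 0.90, edgeR adjusted p = 0.0843 and 0.185) and Pcdhgb4 without N22 DMSO 1 (0.87, edgeR adjusted p = 0.0717). DESeq2 did not call Pcdhga2, Pcdhgb1 and Pcdhga12 in WT, Pcdhga11 and Pcdhga12 in KO22 and Pcdhga7 in N22.

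The beta genes had few reads. Their summed level was 2.76 and 4.46 CPM in KO22 with GSK-3484862 and 1.89 and 2.28 with DMSO, 3.10 and 2.67 in N22 with GSK-3484862 and 1.53 and 1.32 with DMSO, and 2.91 and 3.09 in WT with GSK-3484862 and 0.734 and 0.875 with DMSO. Libraries given GSK-3484862 were above the DMSO libraries of the same genotype throughout. Pcdhb17 (37484795 to 37489454) had 19 and 23 counts in KO22 with GSK-3484862 and 12 and 12 with DMSO, 10 and 10 in N22 with GSK-3484862 and 9 and 8 with DMSO, and 19 and 18 in WT with GSK-3484862 and 1 and 1 with DMSO. WT with DMSO stood apart from all other treated groups in this gene. After scaling by library totals, WT with GSK-3484862 was 19.5 times WT with DMSO, a ratio with an exact 95% interval of 5.02 to 167 for counting error only, and the rise was called (edgeR adjusted p = 1.29e-05). In KO22 the ratio was 1.74 (1.03 to 3.00) and in N22 1.25 (0.621 to 2.54), and neither was called (edgeR adjusted p = 0.200 and 0.727).

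Pcdhb14 (37447656 to 37456350) had 4 and 7 counts in KO22 with GSK-3484862 and 4 and 7 with DMSO, 12 and 7 in N22 with GSK-3484862 and 1 and 1 with DMSO, and 9 and 14 in WT with GSK-3484862 and 0 and 0 with DMSO. It rose in WT, at least 8.06-fold (the empty group being set to 3 counts in all), and in N22, with a ratio of 10.1 (2.43 to 89.3), while the groups of KO22 had the same counts (edgeR adjusted p = 1.03e-04, 0.00574 and 0.991). Pcdhb22, which did not pass the filter, had 7 and 10 counts in KO22 with GSK-3484862 and 5 and 6 with DMSO, 7 and 3 in N22 with GSK-3484862 and 6 and 5 with DMSO, and 1 and 6 in WT with GSK-3484862 and 1 and 3 with DMSO. Its groups overlapped in N22 and WT. The other 19 beta genes had at most 8 counts in any treated library, and among them Pcdhb7 had 8 and 3 in WT with GSK-3484862 and none with DMSO (named after its values were seen).

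The alpha genes were near the limit of detection. Summed over 14 genes, they had 22 counts in KO22 with GSK-3484862 and 2 with DMSO, 34 in N22 with GSK-3484862 and 9 with DMSO, and 24 in WT with GSK-3484862 and 13 with DMSO. The ratios of scaled counts, with exact 95% counting intervals, were 10.9 (2.69 to 95.9) in KO22, 4.01 (1.88 to 9.51) in N22 and 1.94 (0.950 to 4.15) in WT, the last of which includes 1. The KO22 ratio rests on 2 counts in 1 DMSO library. With 1 library left out, the log2 ratio of the mean levels was 2.39 to 3.92 in KO22 (3.39 with all), 1.22 to 4.17 in N22 (2.05 with all) and 0.69 to 1.19 in WT (0.96 with all), and without KO22 DMSO 1 there was no alpha count left in KO22 with DMSO. Pcdhac2, the most counted alpha gene, had 0 and 1 counts in KO22 with GSK-3484862 and 0 and 0 with DMSO, 12 and 2 in N22 with GSK-3484862 and 0 and 1 with DMSO, and 0 and 2 in WT with GSK-3484862 and 0 and 4 with DMSO, so that its 12 counts in N22 GSK 1 make up most of that library's 22 alpha counts. All 6 treated counts of Pcdhac1 were in WT DMSO 1. Pcdha5 had 1 and 4 counts in KO22 with GSK-3484862 and 1 and 0 with DMSO, 3 and 4 in N22 with GSK-3484862 and 0 and 0 with DMSO, and 3 and 1 in WT with GSK-3484862 and 0 and 1 with DMSO. Pcdha3 had 1 to 3 counts in every library given GSK-3484862 and 0 or 1 in every DMSO library. A count of 0 allows up to 3 counts, or 0.154 to 0.179 CPM, in a treated library, and no alpha gene passed the filter.

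With DMSO, the genotypes differed. In KO22 against WT, 10 of the 20 tested genes were higher and none lower, beside 23.4% of 16641 genes higher (the median of all genes was -0.044). Of the 17 with a mean of at least 10 counts in WT with DMSO, 7 were called. The called genes were Pcdhb14, Pcdhb17, 5 of 6 gamma B genes and 3 of 10 gamma A genes, and neither gamma C gene tested. Pcdhga8 was 2.38 ± 0.35 (log2, SE, edgeR adjusted p = 3.53e-08) higher in KO22, Pcdhgb5 1.94 ± 0.23 (log2, SE, edgeR adjusted p = 1.02e-10) and Pcdhgb2 1.47 ± 0.35 (log2, SE, edgeR adjusted p = 2.93e-04). Pcdhga1 and Pcdhgb7 were 0.94 ± 0.23 and 1.02 ± 0.32 higher (edgeR adjusted p = 4.88e-04 and 0.00479). Against these, Pcdhga12 differed by 0.044 (95% interval -0.31 to 0.39), Pcdhgc3 by 0.0054 (95% interval -0.37 to 0.38) and Pcdhgc5 by -0.90 (95% interval -1.85 to 0.06), none called. For Pcdhb17 the ratio of KO22 to WT was 12.4 (3.07 to 108), and for Pcdhb14 KO22 was at least 3.78-fold higher. In the untreated set none of the tested genes was called in Dux-KO against E14, and Dux-KO means lay on both sides of those of E14.

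The 3 gamma genes that differed most, Pcdhgb4, Pcdhga8 and Pcdhgb5, follow each other on the chromosome, with Pcdhga7 before them, between 37714764 and 37735622. Pcdhgb4 and Pcdhga7 are named here after their values were seen. Pcdhga7 was 1.24 higher in KO22 on the log2 scale (0.74 to 2.02 with 1 library left out), Pcdhgb4 1.92 (1.46 to 2.60), Pcdhga8 2.38 (2.02 to 2.84) and Pcdhgb5 1.94 (1.84 to 2.04). Parts of the first exons of Pcdhga7 and Pcdhga8 are shared with Gm37165 and, for Pcdhga8, with Pcdhgb4, and reads there were not counted. On their far side, Pcdhga9 differed by 0.66 ± 0.39 (log2, SE, edgeR adjusted p = 0.147). With 1 library left out, calls were lost for Pcdhga7 without KO22 DMSO 2 or WT DMSO 1 (log2 differences of 1.00 and 0.74, edgeR adjusted p = 0.146 and 0.253), and it was 2.02 without WT DMSO 2. Pcdhgb6, 1.46 with all libraries, was lost without KO22 DMSO 1, WT DMSO 1 or WT DMSO 2 (0.96, 1.35 and 1.58, edgeR adjusted p = 0.255, 0.0911 and 0.0556) and Pcdhgb7 without WT DMSO 1 (0.77, edgeR adjusted p = 0.0923). DESeq2 did not call Pcdhga7 and Pcdhgb6.

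The DMSO mean of N22 lay above that of WT and below that of KO22 in 11 of the 18 gamma genes. In Pcdhgc5 the order was the reverse. Such orders were not counted over all genes. In N22 against WT, 2 of 20 genes were higher, Pcdhb17 (ratio 8.78, 2.08 to 78.3, edgeR adjusted p = 0.0104) and Pcdhgb5 (0.74 ± 0.27 on the log2 scale, edgeR adjusted p = 0.0333), and none lower, beside 11.5% of all genes higher, so that the share of these genes was close to that of all genes. Of the 17 with a mean of at least 10 counts in WT with DMSO, which leaves out Pcdhb17, 1 was called. Without WT DMSO 1, WT DMSO 2 or N22 DMSO 1 both calls were lost. The log2 difference of Pcdhgb5 was then 0.83, 0.65 and 0.56 (edgeR adjusted p = 0.0784, 0.184 and 0.270), and that of Pcdhb17 stayed at 2.99, 2.97 and 2.87, against 2.98 with all libraries (edgeR adjusted p = 0.0670, 0.0734 and 0.0548). DESeq2 did not call Pcdhgb5 (adjusted p = 0.0887). In N22 against KO22, 5 of 20 were lower and none higher, beside 18% of all genes lower. These were Pcdhgb5 (-1.20 ± 0.21 on the log2 scale, edgeR adjusted p = 4.09e-06), Pcdhga8 (-1.55 ± 0.32 on the log2 scale, edgeR adjusted p = 5.06e-05), Pcdhgb4, Pcdhgb2 and Pcdhga7, and Pcdhgb2 was lost without KO22 DMSO 2 or N22 DMSO 2 (log2 differences of -0.75 and -0.85, edgeR adjusted p = 0.170 and 0.112) and Pcdhga7 without KO22 DMSO 2, N22 DMSO 1 or N22 DMSO 2 (-0.89, -1.03 and -1.24, edgeR adjusted p = 0.240, 0.164 and 0.0997). DESeq2 did not call Pcdhgb2 and Pcdhga7.

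With GSK-3484862, no genotype difference was called in any of the 20 genes, beside 22.4% of 16641 genes called in either direction in KO22 against WT, 9.65% in N22 against WT and 24.6% in N22 against KO22. At an unadjusted p below 0.05, 1 gene differed in KO22 against WT (Pcdhgb5), 1 in N22 against WT (Pcdhgc3) and 0 in N22 against KO22 in edgeR, and DESeq2 called 0 in each. Without WT GSK 1, Pcdhgc4 passed the filter and was called lower in KO22 than in WT (edgeR adjusted p = 0.0203), and without N22 GSK 2, Pcdhac2 was called higher in N22 than in KO22 (0.0183). For Pcdhgb5 KO22 differed from WT by 0.39 (95% interval 0.03 to 0.75), and for Pcdhga8 by 0.22 (95% interval -0.34 to 0.78). The highest genotype mean was 1.05 to 1.54 times the lowest over the 18 gamma genes with GSK-3484862, with a median of 1.25, and 1.09 to 5.31 times with DMSO, with a median of 1.88. This span was smaller with GSK-3484862 in 14 of the 18 genes, the exceptions being Pcdhga2, Pcdhga4, Pcdhga12 and Pcdhgc3. The span was not computed for all genes. Among all 16641 genes, too, fewer genotype differences were called with GSK-3484862 than with DMSO. The counts were 3728 against 8643 in KO22 against WT, 1606 against 4221 in N22 against WT and 4087 against 6507 in N22 against KO22.

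**Figure D4:**
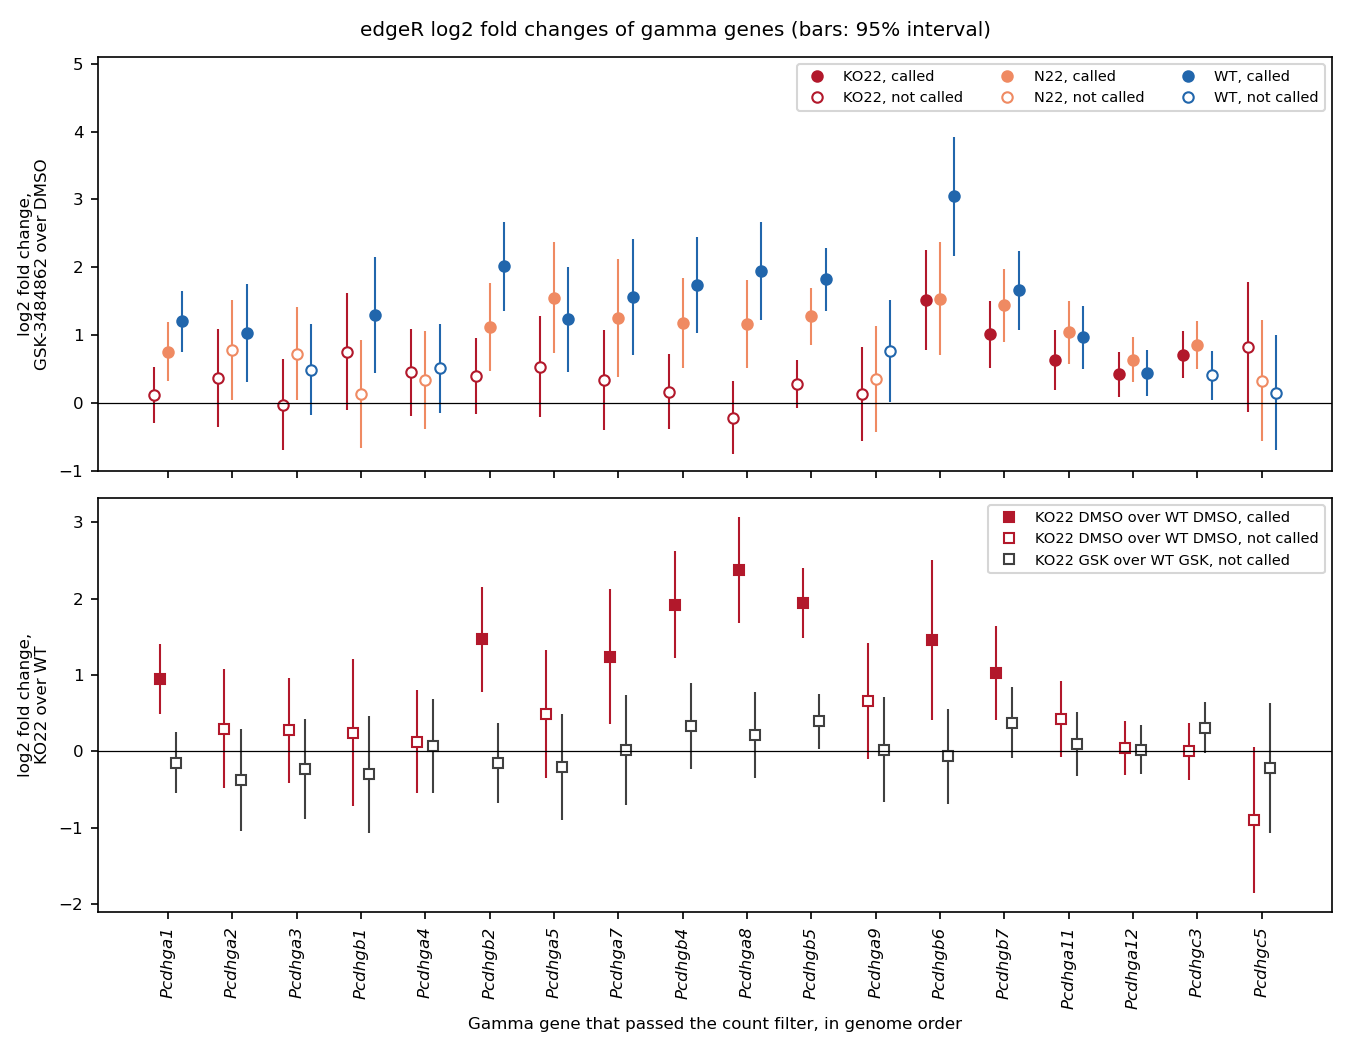
edgeR log2 fold changes of the 18 tested gamma genes in genome order, with bars of 95% intervals and filled marks for called genes. Above, the response to GSK-3484862 in KO22, N22 and WT. Below, KO22 over WT with DMSO (red) and with GSK-3484862 (grey). From Pcdhga7 to Pcdhgb5, KO22 is higher than WT with DMSO, and no response to GSK-3484862 is called in KO22.

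The difference between the responses was tested directly as an interaction. The response was smaller in KO22 than in WT in 7 of 20 genes and larger in none, beside 13.5% of 16641 genes lower. Of the 17 with a mean of at least 10 counts in WT with DMSO, which leaves out Pcdhb14 and Pcdhb17, 5 were called. Pcdhga8 differed by -2.16 ± 0.46 (log2, SE, edgeR adjusted p = 1.46e-04), Pcdhgb2 by -1.62 ± 0.44 (log2, SE, edgeR adjusted p = 0.00301), Pcdhgb4 by -1.58 ± 0.46 (log2, SE, edgeR adjusted p = 0.00579), Pcdhgb5 by -1.54 ± 0.30 (log2, SE, edgeR adjusted p = 3.64e-05) and Pcdhga1 by -1.09 ± 0.31 (log2, SE, edgeR adjusted p = 0.00446). Pcdhb14 and Pcdhb17 were called as well (edgeR adjusted p = 0.00357 and 0.00862). These are genes that were also higher in KO22 with DMSO, and both comparisons use the same DMSO libraries. For the genes that rose in all 3 genotypes the difference was not called, as in Pcdhgb6 (-1.52 ± 0.62 on the log2 scale, edgeR adjusted p = 0.0539) and Pcdhga12 (-0.02 ± 0.24 on the log2 scale, edgeR adjusted p = 0.969). Without WT DMSO 1 the call of Pcdhgb4 was lost, at -1.13 (log2, edgeR adjusted p = 0.0892).

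The response of N22 differed from that of WT in 1 of 20 genes, Pcdhb17, which was lower, at -3.79 on the log2 scale (edgeR adjusted p = 0.0105), beside 5.26% of all genes lower. Without WT DMSO 2 it was -3.78 (edgeR adjusted p = 0.0561), and of the 17 genes with a mean of at least 10 counts in WT with DMSO 0 were called. Against KO22, the response of N22 was larger in 2 of 20, Pcdhgb5 (1.00 ± 0.28 on the log2 scale, edgeR adjusted p = 0.00729) and Pcdhga8 (1.38 ± 0.43 on the log2 scale, edgeR adjusted p = 0.0170), beside 7.81% of all genes higher, a share close to that of all genes. DESeq2 called neither (adjusted p = 0.0589 and 0.0988). Leaving out N22 DMSO 2 ended the call of Pcdhgb5 (0.84, edgeR adjusted p = 0.0700), and leaving out KO22 DMSO 1, N22 DMSO 1 or N22 GSK 1 that of Pcdhga8 (1.18, 1.26 and 1.29, edgeR adjusted p = 0.0914, 0.0753 and 0.0630).

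In the untreated cells, 18 of the 57 genes passed the filter, 17 gamma genes and Pcdhb17. None was called in Dux-KO against E14, Dux n=1 against E14 or Dux n=1 against Dux-KO, beside 20.4%, 9.16% and 0% of 14796 genes called. At an unadjusted p below 0.05 edgeR had 0, 1 (Pcdhga12) and 0 of the 18 and DESeq2 called 0 in each. The summed gamma level was 28.4 ± 8.24 CPM in Dux-KO (SD, n = 3), 26.8 ± 4.64 in Dux n=1 (SD, n = 4) and 27.7 ± 0.704 in E14 (SD, n = 3), so that the means differed by less than the spread among clones. The gamma C sum was 3.66 to 5.83 CPM in Dux-KO, 3.67 to 5.37 in Dux n=1 and 2.89 to 3.66 in E14, means of 1.39 and 1.35 times that of E14, with every clone above E14 or at its top. The beta sum was 0.671 to 2.77 CPM in Dux-KO, 0.949 to 2.12 in Dux n=1 and 2.13 to 2.61 in E14, so that Dux n=1, at 0.63 times the E14 mean, lay below E14 and Dux-KO overlapped it. These sums were not tested.

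The clones differed gene by gene. Pcdhgb5 had 1.60, 3.31 and 4.81 CPM in Dux-KO 15, 22 and 52, 2.12, 2.06, 5.38 and 3.10 in Dux n=1 17, 22, 31 and 40 and 4.25, 3.84 and 4.32 in E14. Pcdhga8 had 0.980, 2.26 and 3.23 CPM in the same Dux-KO clones, 1.03, 0.580, 2.28 and 2.38 in Dux n=1 and 2.38, 2.83 and 2.79 in E14. Pcdhb17 had 1, 12 and 21 counts in Dux-KO, 9, 0, 7 and 27 in Dux n=1 and 21, 22 and 16 in E14. Dux-KO 15, Dux n=1 17 and Dux n=1 22 were the lowest of the 10 libraries in Pcdhgb5 and Pcdhga8, and Dux-KO 15 and Dux n=1 22 had at most 1 count of Pcdhb17. The group differences were -0.40 (95% interval -1.26 to 0.46) for Pcdhgb5 in Dux-KO against E14 and -0.42 (95% interval -1.22 to 0.38) in Dux n=1 against E14, and for Pcdhga8 -0.35 (95% interval -1.38 to 0.69) and -0.79 (95% interval -1.77 to 0.19).

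Other genes did not share that order of libraries. Pcdhga12 had 4.49, 3.68 and 3.79 CPM in Dux-KO, 3.45, 5.54, 4.30 and 3.15 in Dux n=1 and 2.32, 2.71 and 3.06 in E14, with its highest value in Dux n=1 22. Every clone was thus above every E14 library in this gene, with log2 differences from E14 of 0.51 (95% interval 0.02 to 1.01, edgeR adjusted p = 0.174) in Dux-KO and 0.56 (95% interval 0.09 to 1.03, edgeR adjusted p = 0.150) in Dux n=1, not called. The Dux-KO interval leaves out 0 although the unadjusted edgeR p was not below 0.05, because an interval of 1.96 SE either way is narrower than that test. Pcdhgc3 had 3.30, 3.79 and 5.27 CPM in Dux-KO, 3.69, 3.59, 3.61 and 4.91 in Dux n=1 and 2.55, 2.88 and 3.33 in E14. Its E14 range overlapped that of Dux-KO by 1 library and lay below that of Dux n=1. Pcdhgb6 had 0.206, 0.789 and 1.19 CPM in Dux-KO, 0.484, 0.475, 0.190 and 0.723 in Dux n=1 and 0.340, 0.678 and 0.219 in E14, with overlap throughout.

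The remaining genes shown by library in the treated set overlapped between untreated groups. Pcdhga1 had 1.44, 2.32 and 3.62 CPM in Dux-KO, 1.88, 2.32, 2.41 and 2.43 in Dux n=1 and 2.83, 2.37 and 3.28 in E14. Pcdhgb2 had 0.516, 0.894 and 1.47 CPM in Dux-KO, 0.666, 0.738, 1.27 and 1.76 in Dux n=1 and 1.64, 0.848 and 1.31 in E14. Pcdhgb7 had 0.722, 1.16 and 1.98 CPM in Dux-KO, 0.726, 1.16, 1.14 and 0.723 in Dux n=1 and 1.59, 0.735 and 0.984 in E14. Dux-KO 52 was the highest in Pcdhga1, in Pcdhgb7 and in the gamma sum (37.4 CPM), and Dux n=1 40 in Pcdhgb2. Pcdhb14 had 1, 4 and 6 counts in Dux-KO, 0, 2, 6 and 4 in Dux n=1 and 5, 4 and 5 in E14, Pcdhb22 had 2 to 7 in every untreated library, Pcdhgc5 0 to 15, Pcdhgc4 0 to 5 and all alpha genes together 0 to 5.

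**Figure D5:**
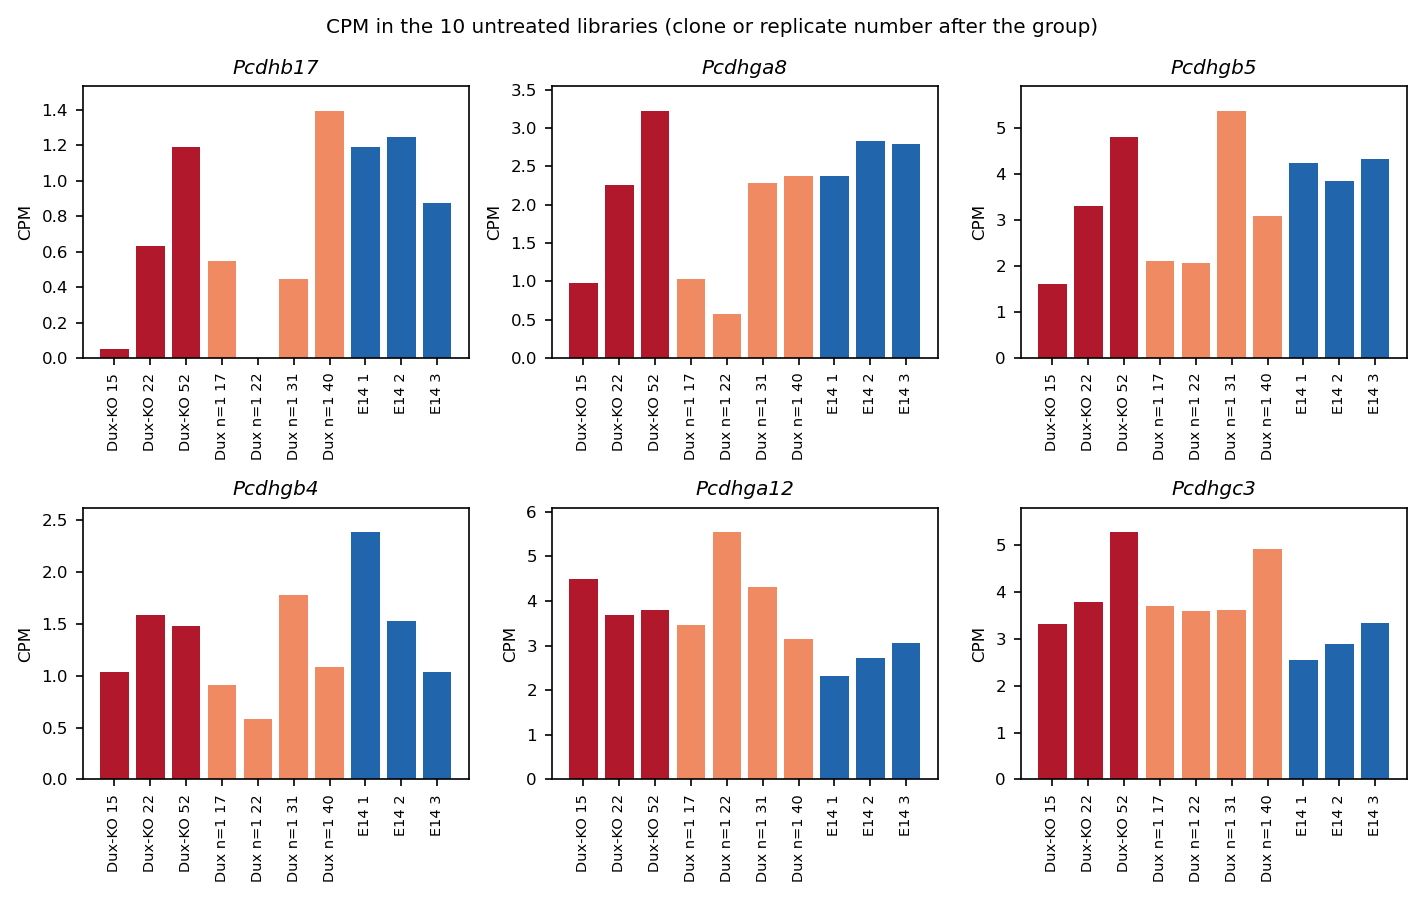
CPM of 6 genes in the 10 untreated libraries, Dux-KO and Dux n=1 clones by number and E14 by replicate. Pcdhb17, Pcdhga8 and Pcdhgb5 are low in Dux-KO 15 and Dux n=1 22, where Pcdhga12 is among the highest.

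The spread over libraries was set beside counting error as chi-square per degree of freedom of a gene's counts against equal CPM, which is near 1 when counting error alone is at work. Over the 10 untreated libraries it was highest among the family in Pcdhgb5 (8.23), Pcdhga8 (7.06) and Pcdhb17 (6.19). The median of 24 genes of the family with at least 20 counts was 2.91, beside 2.94 for the 6727 genes with 23 to 667 counts, so that the family as a whole did not stand out. Over the 6 DMSO libraries Pcdhgb5 reached 23.1, Pcdhga8 17.8 and Pcdhga12 0.598, and the family median was 2.62 beside 2.48 for all genes of like counts. Over the 6 libraries given GSK-3484862 the same 3 genes had 1.59, 0.232 and 0.398, and the medians were 1.32 and 1.99. Values of this kind grow with a gene's counts.

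As a description across genes, the KO22 over WT difference with DMSO and the response to GSK-3484862 in N22, which share no library, had Spearman's rho of 0.69 and Pearson's r of 0.64 over the 18 gamma genes, which are neighbours in 1 cluster and not independent. CpG sites were counted in the first 2000 bases of the longest transcript model of each gene, which is transcript sequence and not the promoter. The ratio of observed to expected CpG had a median of 0.705 in alpha, 0.439 in beta and 0.600 in gamma genes, beside 0.429 for protein-coding genes with a full window. Over the 18 gamma genes its rho with the response to GSK-3484862 was 0.25 in KO22, 0.47 in N22 and 0.37 in WT.

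Genes of 7 lists, 3 of them of factors known to act on the family, were counted beside the median change of all genes (at most 0.00395 in size). Of all 16641 genes, 24.8% rose and 21.2% fell with GSK-3484862 in KO22, 26.9% rose and 26% fell in N22, and 28.7% rose and 28.1% fell in WT. Of 12 CTCF and cohesin genes tested, 0 rose and 6 fell with GSK-3484862 in KO22, 1 rose and 7 fell in N22, and 3 rose and 7 fell in WT, with medians of -0.13, -0.14 and -0.13 (log2). Ctcf itself, the factor that anchors promoter loops, differed by -0.15 ± 0.041 (log2, SE, edgeR adjusted p = 0.00132) in KO22, 0.067 ± 0.041 (log2, SE, edgeR adjusted p = 0.169) in N22 and 0.14 ± 0.041 (log2, SE, edgeR adjusted p = 0.00327) in WT. Of 14 silencing factors, 2 rose and 8 fell in KO22 and in N22, and 4 rose and 9 fell in WT, with medians of -0.12, -0.17 and -0.14. Smchd1, a chromatin protein that represses clustered protocadherins in mice, differed by 0.12 ± 0.052 (log2, SE, edgeR adjusted p = 0.0528) in KO22, -0.25 ± 0.051 (log2, SE, edgeR adjusted p = 4.37e-05) in N22 and -0.31 ± 0.051 (log2, SE, edgeR adjusted p = 2.48e-07) in WT. Of 8 genes of the DNA methylation machinery, 4 rose and 3 fell in KO22, 2 rose and 5 fell in N22, and 3 rose and 4 fell in WT, with medians of 0.081, -0.30 and -0.13. Dnmt3b, a de novo methyltransferase, differed by 0.32 ± 0.037 (log2, SE, edgeR adjusted p = 3.85e-11) in KO22, -0.35 ± 0.036 (log2, SE, edgeR adjusted p = 8.90e-13) in N22 and 0.05 ± 0.037 (log2, SE, edgeR adjusted p = 0.251) in WT.

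With DMSO, Smchd1 was -0.54 ± 0.051 (log2, SE, edgeR adjusted p = 1.98e-14) in KO22 against WT, Dnmt3b -0.29 ± 0.037 (log2, SE, edgeR adjusted p = 4.11e-10), Dnmt1 -0.29 ± 0.032 (log2, SE, edgeR adjusted p = 4.57e-12) and Ctcf 0.29 ± 0.041 (log2, SE, edgeR adjusted p = 1.56e-08). Over the whole lists, 4 of 12 CTCF and cohesin genes were higher and 6 lower in KO22, 7 of 14 silencing factors were higher and 3 lower, and 3 of 8 DNA methylation genes were higher and 4 lower, beside 23.4% of all genes higher and 28.5% lower. The lists thus held genes of both directions. Their part in the protocadherin differences was not tested.

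Related adhesion genes and neighbours on the chromosome were counted in the same way. The shares of all genes to set beside them were 24.8% higher and 21.2% lower in KO22, 26.9% and 26% in N22, and 28.7% and 28.1% in WT. Of the 12 solitary protocadherins, which lie outside the clusters, 3 passed the filter, and 2 of them rose in KO22, 2 in N22 and 3 in WT, none falling (medians 1.53, 1.89 and 2.36). Genes low with DMSO can pass the filter through libraries given GSK-3484862, which favours rises. This was not examined for these lists. Pcdh19 rose by 1.53 ± 0.47 (log2, SE, edgeR adjusted p = 0.00586) in KO22, 2.17 ± 0.48 (log2, SE, edgeR adjusted p = 1.06e-04) in N22 and 2.36 ± 0.52 (log2, SE, edgeR adjusted p = 9.25e-05) in WT. Of 7 classical cadherins tested, 4 rose and 0 fell in KO22, 5 rose and 0 fell in N22, and 5 rose and 1 fell in WT (medians 1.14, 0.80 and 1.27). Cdh4, the retinal cadherin, rose by 1.39 ± 0.15 (log2, SE, edgeR adjusted p = 1.47e-12) in KO22, 2.03 ± 0.21 (log2, SE, edgeR adjusted p = 2.52e-13) in N22 and 2.88 ± 0.20 (log2, SE, edgeR adjusted p = 3.14e-20) in WT. Of 13 cytoplasmic partners of protocadherins, 5 rose and 3 fell in KO22, 8 rose and 4 fell in N22, and 6 rose and 5 fell in WT (medians 0.047, 0.19 and 0.055). Of 19 tested flanking and intervening genes of the region, 4 rose and 8 fell in KO22, 3 rose and 8 fell in N22, and 4 rose and 7 fell in WT (medians -0.077, -0.18 and -0.10). In each genotype the share that fell was above that of all genes and the share that rose below it. Taf7, a general transcription factor gene that lies between the beta and gamma clusters, differed by 0.01 ± 0.05 (log2, SE, edgeR adjusted p = 0.894) in KO22, 0.087 ± 0.05 (log2, SE, edgeR adjusted p = 0.142) in N22 and 0.29 ± 0.05 (log2, SE, edgeR adjusted p = 9.96e-07) in WT.

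Sums of cell type markers differed with the treatment. The sum of the 8 ES cell markers was 3898 to 4045 CPM in the 6 libraries given GSK-3484862 and 4836 to 5395 in the 6 with DMSO. Of these 8 markers, 7 fell in KO22, 8 in N22 and 7 in WT, and 0 rose. The sum of 10 neuronal markers was 544 to 630 CPM with GSK-3484862 and 402 to 495 with DMSO, and most of it came from Stmn2 and Tubb3, which all untreated libraries had at 275 to 340 and 120 to 222 CPM. Members of the list went both ways. Of 7 tested, 3 rose and 1 fell in KO22, 3 rose and 2 fell in N22, and 3 rose (Syn1, Stmn2 and Tubb3) and 3 fell (Map2, Elavl3 and Rbfox3) in WT, where Map2 had 5.22 and 4.88 CPM with GSK-3484862 and 10.8 and 9.88 with DMSO. Of the defining neuronal genes, Dcx had 0 to 0.105 CPM, Snap25 0.0517 to 0.710 and Rbfox3 0.760 to 2.10 in the treated libraries. The sum of 8 neural progenitor markers was 51.3 to 64.5 CPM with GSK-3484862 and 28.4 to 36.4 with DMSO. The sums of 11 fibroblast, 8 primitive endoderm and 8 trophoblast markers were 168 to 197, 117 to 150 and 81.3 to 129 CPM with GSK-3484862 and 174 to 250, 121 to 177 and 54.9 to 121 with DMSO. Within genotypes the fibroblast sum was lower with GSK-3484862 throughout, as in KO22 (195 to 197 against 249 to 250). The trophoblast sum was higher in KO22 (81.3 to 86.1 against 54.9 to 55.5) and N22 (122 to 124 against 92.0 to 93.9) and overlapped in WT. The primitive endoderm sum was lower in KO22 (133 to 137 against 175 to 177), higher in WT (144 to 150 against 125 to 126) and overlapped in N22. Of 4 neural progenitor markers tested, 3 rose in WT and N22 and 4 in KO22, and none fell. In WT, 6 of 8 primitive endoderm markers rose and 0 fell, beside 3 and 1 in N22 and 3 and 2 in KO22. Sox17 and Foxa2 had at most 0.463 CPM in any DMSO library and entered through libraries given GSK-3484862, which favours rises. Of 7 trophoblast markers, 4 rose and 0 fell in WT, beside 3 and 1 in N22 and 4 and 1 in KO22. Among them Cdx2 had only 0.0525 and 0.0515 CPM in WT with DMSO. Of 7 fibroblast markers, 4 rose and 2 fell in WT, and 3 rose and 3 fell in N22 and in KO22. Of all genes, 28.7% rose in WT, 26.9% in N22 and 24.8% in KO22. Their part in the protocadherin differences was not tested.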

How the data were processed

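The deposited values are raw counts per gene, 1 table per library. Per the file headers they came from featureCounts 2.0.1 on an Ensembl 84 annotation of GRCm38, for read pairs, without strand and without multi-mapping reads. The submitters' processing notes also name fastp 0.23.2, HISAT2 2.1.0 and DESeq2 1.40.2. Total counts were 15803194 to 19427794 per library, and the intervals of count ratios and the floors cover counting error only. Gene symbols and types came from a GENCODE M21 annotation, which gave a symbol to 47310 of 47729 genes.

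The 12 treated and 10 untreated libraries were fitted apart with edgeR 4.0.16 (R 4.3.3), by a quasi-likelihood test with TMM factors, a filter on low counts (minimum count 10) and Benjamini-Hochberg adjustment over all genes tested. A call is an adjusted p below 0.05. The 95% intervals of log2 differences are 1.96 SE either way, a normal approximation that is narrower than the edgeR test where libraries are few. CPM used total counts. The edgeR fit was checked on simulated counts. The alternatives, DESeq2 1.42.0 among them, were not. Replicate pairs differed by 2.72 to 58.5 chi-square per degree of freedom, so none was counted as 1 library deposited again. Ratios of low counts carry exact binomial-based 95% intervals, and a group at 0 was set to 3 counts over the group.

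The members and all lists were chosen with earlier results of these data known. Values by library are given for the C-type genes, the 3 members of each cluster with the highest mean CPM over the treated libraries, and up to 6 called members of each cluster by adjusted p. Of a list, at most 4 genes by adjusted p were open to naming, plus Ctcf, Smchd1, Dnmt3b and Taf7. The lists are CTCF and cohesin, silencing factors, DNA methylation machinery, solitary protocadherins, classical cadherins, cytoplasmic partners and flanking genes, and markers of ES cells, neurons, neural progenitors, fibroblasts, primitive endoderm and trophoblast. No set test was run.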

Additional observations from a re-analysis of the deposited data

Results flagged for a closer look

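The response to GSK-3484862 differed between genotypes, by the interaction test across all genes in edgeR, in 7 of 20 genes for KO22 against WT (13.5% of all genes were lower). All 7 were smaller in KO22: Pcdhgb5 (adjusted p = 3.635e-05), Pcdhga8 (0.000146), Pcdhgb2 (0.00301), Pcdhb14 (0.003572), Pcdhga1 (0.004464), Pcdhgb4 (0.005788) and Pcdhb17 (0.008618). For N22 against WT it differed in Pcdhb17 (edgeR adjusted p = 0.01054), which was smaller in N22 (1 of 20, beside 5.26% of all genes). For N22 against KO22 it differed in Pcdhgb5 (0.00729) and Pcdhga8 (0.01697), which were larger in N22 (2 of 20, beside 7.81% of all genes). The last 2 counts are near the share of all genes. The 3 contrasts share libraries and are not independent.

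In the 4 Dux n=1 libraries, Pcdhgc3 had 4.905 CPM in Dux n=1 40, apart from 3.586 to 3.692 CPM in the other 3. The gap was 0.9192 of the whole range, above the critical value of 0.829 for 4 samples. It was the only one of 22 values examined in this way that stood apart, and chance alone flags about 1 in 20 such groups.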

How the results depend on the processing

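RLE factors, a GC content offset and the replicate block each kept all 60 gene calls examined in the treated set, no filter kept 58 of 60, a fit of only the compared groups 54 of 55, and DESeq2 43 of 56, and none changed sign. The replicate block left every count of called genes as it was (15, 5 and 13 for GSK-3484862 in WT, KO22 and N22), and deviations of same-numbered libraries correlated by -0.0168 to 0.0294. Same-numbered libraries thus shared no clear deviation, which does not tell whether they were handled together. In the untreated set no paired analysis was possible because the groups share only number 22. DESeq2 called 3 genes for GSK-3484862 in KO22, 0 for the response difference of N22 from WT, 0 for that from KO22, 0 in N22 against WT with DMSO and 3 in N22 against KO22 with DMSO, where edgeR called 5, 1, 2, 2 and 5. A fit of only the compared groups called 0 in N22 against WT with DMSO. The cause was not tested.

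Leaving out 1 library, which leaves an arm of 1 library that is assumed to vary like the other groups, kept 238 of 280 gene calls. It gave 3 to 4 calls for GSK-3484862 in KO22, 0 to 1 for the response difference of N22 from WT, 1 to 2 for that from KO22, 0 to 2 in N22 against WT and 3 to 5 in N22 against KO22 with DMSO, and with GSK-3484862 0 to 1 in KO22 against WT and in N22 against KO22. Without N22 DMSO 2 the log2 ratio of the alpha sum in N22 was 4.17. Levels per kilobase by deposited gene length, which includes the shared exons, moved by more than 1 SD in 16 of 56 genes in WT with DMSO. All alpha genes and most beta genes did not pass the count filter.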

Other observations

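Non-coding genes in the protocadherin region were looked at after their values were seen. Besides those below, Gm8242 and Gm26672 were tested, and neither was called with GSK-3484862 in any genotype. With DMSO, Gm26672 was 1.90 ± 0.69 higher in KO22 than in WT (log2, SE, edgeR adjusted p = 0.0162). Of all genes, 24.8% rose with GSK-3484862 in KO22, 26.9% in N22 and 28.7% in WT. The long non-coding RNA gene 4930517L18Rik (chromosome 18, 37618906 to 37619766, plus strand, GRCm38) lies between the beta and gamma clusters. It had 43 and 82 counts in KO22 with GSK-3484862 and 14 and 17 with DMSO, 51 and 63 in N22 with GSK-3484862 and 16 and 20 with DMSO, and 28 and 39 in WT with GSK-3484862 and 14 and 6 with DMSO. The groups did not overlap in any genotype. It rose by 1.98 ± 0.35 in KO22, 1.69 ± 0.35 in N22 and 1.74 ± 0.42 in WT (log2, SE, edgeR adjusted p = 3.178e-06, 3.177e-05 and 0.000278).

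The long non-coding RNA gene 3222401L13Rik (37655451 to 37661742, plus strand) ends just before the first exon of Pcdhga1. It had 61 and 79 counts in KO22 with GSK-3484862 and 75 and 91 with DMSO, 52 and 79 in N22 with GSK-3484862 and 43 and 51 with DMSO, and 72 and 81 in WT with GSK-3484862 and 46 and 33 with DMSO. It rose in WT by 0.96 ± 0.25 (log2, SE, edgeR adjusted p = 0.000721), and in KO22 with DMSO it was 1.09 ± 0.25 higher than in WT (edgeR adjusted p = 0.000124). With GSK-3484862 it differed by 0.51 ± 0.25 in N22 and -0.27 ± 0.23 in KO22, not called (log2, SE, edgeR adjusted p = 0.0752 and 0.351). Its response was smaller in KO22 than in WT (edgeR adjusted p = 0.00297), as that of Pcdhga1 was.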
